A study of Homo sapiens with 18 samples.

Results

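The 38 genes described here are the transporters and enzymes that carry glucose to lactate, the kinases and bifunctional enzymes that set how fast that happens, and the oxygen sensors and target genes of the hypoxia response. They were chosen by name, as the rows of the deposited count table whose symbol is in a list, which was drawn up with earlier results of these data known. All 38 were found among the 28395 genes of the table, and all 38 passed the filter on low counts, which left 14571 genes to test.

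Glycolysis splits glucose into pyruvate, and lactate dehydrogenase turns pyruvate into lactate that leaves the cell through monocarboxylate transporters. When oxygen is scarce, prolyl hydroxylases of the EGLN family can no longer mark HIF-1α, the protein of the HIF1A gene, for destruction, and HIF-1 then switches on most glycolytic genes together with genes for angiogenesis, mitophagy, pH control and collagen hydroxylation. HIF-1 is set mainly at the level of protein stability, so the level of its own transcript is a poor guide to its activity, and MYC also drives many of the same glycolytic genes in dividing cells.

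The series holds 18 RNA-seq libraries, in 9 groups of 2, of OPM2, MM1S and H929, which are established lines of malignant plasma cells from multiple myeloma. Each line was measured with a doxycycline-inducible CRISPR-Cas9 knockout of IKZF1 (Ikaros) and with an empty vector, both given doxycycline at 1 µg/mL, and OPM2 also with a knockout of IKZF3 (Aiolos) treated in the same way. The remaining OPM2 groups were cells given lenalidomide at 10 µM, a drug that directs Ikaros and Aiolos to degradation through cereblon, and control cells labelled NT, which are called untreated here because their labels name no treatment. All cells were cultured for 72 h and sorted as live cells before RNA extraction. The labels do not say whether the knockout cells are clones or pools, nor whether the libraries of a group came from separate cultures. The p-values thus measure only the spread between libraries, estimated over all 18 together, which may be technical. The series title concerns CD38 and killing by the antibody daratumumab, and the comparisons below ask what the same perturbations did to glycolysis and hypoxia genes.

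Libraries held 11803995 to 24189568 counts, and the 38 genes took 1.14% to 2.53% of them. All 8 plasma cell markers were above 1 CPM (counts scaled to library size, with TMM factors) in every library. Of the myeloid markers, the summed level was 13.3 to 33.9 CPM in the OPM2 knockout and lenalidomide libraries and 1.78 to 3.49 CPM in the OPM2 empty vector and untreated libraries, and it was also higher in the knockouts of MM1S (77.8 and 84.7 CPM, against 36.1 and 36.4 CPM in empty vector cells) and H929 (180 and 248 CPM, against 38.3 and 40.4 CPM in empty vector cells). CD68, a lysosomal glycoprotein, carried nearly all of that sum. FCGR3A was at 0 in every library, and LYZ, MPO and S100A8 did not pass 0.189 CPM. CD14, ITGAM and CSF1R did not pass 2.48, 2.65 and 0.706 CPM. Of these, CD14 was called higher in the MM1S knockout, at 2.125 CPM against 0.1907 CPM in empty vector cells. The summed erythroid markers, almost all HBB, were at 3.4 to 5.6 CPM in the OPM2 lenalidomide and IKZF1 knockout libraries and 7.21 and 10.6 CPM in the IKZF3 knockout libraries, against 10.3 and 18.6 CPM in empty vector and 7.23 and 8.69 CPM in untreated libraries. COL1A1, PRF1 and CD2 were each called in at least 1 comparison but did not pass 1.82, 3.28 and 1.02 CPM. The summed T and NK cell markers were at 48.1 and 44.5 CPM in H929 empty vector and 30.6 and 34.6 CPM in H929 knockout libraries. They did not pass 5.16 CPM in MM1S or 0.522 CPM in OPM2 libraries. CD3E was the highest of them, at up to 40.5 CPM. The part of these shifts in the results below was not tested. Neither IKZF1 nor IKZF3 mRNA fell where that gene was knocked out (IKZF1 averaged 219 CPM in OPM2 IKZF1 knockout and 141 CPM in OPM2 empty vector cells), so transcript levels do not check these labels. In bulk RNA, fewer cells that express a gene and less RNA per cell cannot be told apart. How reads that map to several places or to either strand were counted is not stated, so values of GAPDH, LDHA, LDHB, PGK1, ENO1, PGAM1 and TPI1, which have processed pseudogenes, are uncertain to that extent.

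The promoters of 5 genes are printed because PFKFB4, P4HA1, PDK1, PGK1 and LDHA are the genes, with VEGFA, whose lower level under lenalidomide stayed called whichever library was left out. Each window runs from 250 bases before to 50 bases after the RefSeq transcription start on GRCh38.p14, written 5′ to 3′ on the strand of the gene, with capitals where either core of the hypoxia response element, ACGTG or GCGTG, was found on either strand. The windows lie at chr3:48556754-48557053 (minus strand) for PFKFB4, chr10:73096817-73097116 (minus strand) for P4HA1, chr2:172555840-172556139 (plus strand) for PDK1, chrX:78103998-78104297 (plus strand) for PGK1 and chr11:18396101-18396400 (plus strand) for LDHA.
PFKFB4: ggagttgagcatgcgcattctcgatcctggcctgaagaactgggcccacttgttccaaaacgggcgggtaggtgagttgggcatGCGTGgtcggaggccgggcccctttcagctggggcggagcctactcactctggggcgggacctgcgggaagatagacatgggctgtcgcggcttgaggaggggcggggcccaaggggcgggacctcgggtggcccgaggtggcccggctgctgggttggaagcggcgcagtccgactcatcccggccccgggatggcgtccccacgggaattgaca
P4HA1: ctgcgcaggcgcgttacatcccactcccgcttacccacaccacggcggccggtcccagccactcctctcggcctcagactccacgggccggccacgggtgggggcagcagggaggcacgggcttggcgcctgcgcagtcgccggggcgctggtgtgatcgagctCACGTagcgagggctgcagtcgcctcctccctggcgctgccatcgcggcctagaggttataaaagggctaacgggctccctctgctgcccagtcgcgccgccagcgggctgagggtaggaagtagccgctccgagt
PDK1: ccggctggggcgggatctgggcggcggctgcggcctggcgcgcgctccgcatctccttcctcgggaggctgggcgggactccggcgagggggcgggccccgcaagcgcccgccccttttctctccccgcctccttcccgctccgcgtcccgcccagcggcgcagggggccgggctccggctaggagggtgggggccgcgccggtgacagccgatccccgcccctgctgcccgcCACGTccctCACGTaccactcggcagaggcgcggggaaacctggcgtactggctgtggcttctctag
PGK1: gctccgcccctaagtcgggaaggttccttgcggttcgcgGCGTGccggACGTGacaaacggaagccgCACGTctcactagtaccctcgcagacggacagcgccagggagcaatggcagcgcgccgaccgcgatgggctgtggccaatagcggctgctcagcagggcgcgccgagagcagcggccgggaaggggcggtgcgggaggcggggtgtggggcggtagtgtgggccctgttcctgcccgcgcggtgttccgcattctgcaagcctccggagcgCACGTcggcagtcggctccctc
LDHA: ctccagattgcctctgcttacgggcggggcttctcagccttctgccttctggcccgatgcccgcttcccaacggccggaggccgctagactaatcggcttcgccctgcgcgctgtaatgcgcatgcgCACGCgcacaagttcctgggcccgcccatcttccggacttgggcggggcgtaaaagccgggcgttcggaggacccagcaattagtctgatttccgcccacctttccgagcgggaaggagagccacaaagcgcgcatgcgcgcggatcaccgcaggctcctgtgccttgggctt
PGK1 held 4 matches, PDK1 held 2, and PFKFB4, P4HA1 and LDHA held 1 each. RefSeq windows were matched for 33 of the 38 genes, and 27 of these (81.8%) held at least 1 of the 2 cores, beside 48.4% of all 35116 promoters in the table. ACGTG alone was in 48.5% of the 33 and in 21.4% of all promoters, and GCGTG alone in 51.5% and 36.5%. A match of 5 letters describes the window and does not show that a factor binds there. The windows of HK1, PFKM, PGAM1, HIF1A, EGLN3 and P4HA2 held neither core. VEGFA, SLC2A3, SLC16A1, BNIP3L and NDRG1 had no window to search. All promoters were not matched to these genes for base composition, and its part in the difference between the shares was not tested.

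The 3 lines shared a core of very abundant glycolytic transcripts and differed in the isozymes and some of the hypoxia genes they expressed. Levels between genes are compared here in the authors' deposited log2 FPKM, which is per length of transcript and merges each control group into 1 value with no error. GAPDH, the dehydrogenase of lower glycolysis, stood at 10.3 log2 FPKM in H929, 11.1 in MM1S and 11.7 in OPM2 empty vector cells, and at 11.5 in untreated OPM2 cells. ENO1, ALDOA, LDHA, PGK1 and PKM were all between 7.98 and 10.2 log2 FPKM in the same 4 columns. The median of the 38 genes lay at the 86.2th percentile of all 16352 genes of that table in H929, the 73.8th in MM1S and the 72.2th in OPM2 empty vector cells, and at the 84.5th in untreated OPM2 cells.

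Isozymes divided the lines. PFKP, the platelet-type phosphofructokinase, stood at 7.02 log2 FPKM in H929 and 6.99 in OPM2 empty vector cells but at −3.41 in MM1S, where the liver-type PFKL led with 6.42. ENO2, the neuronal enolase, stood at 6.73 log2 FPKM in MM1S, 3.46 in H929 and 0.38 in OPM2 empty vector cells. HK1, the housekeeping hexokinase, was low in OPM2 (−0.74 log2 FPKM in empty vector and −1.48 in untreated cells), while HK2, the inducible form, stood at 4.61 and 5.32 in the same columns. SLC2A3, the high-affinity glucose transporter GLUT3, stood at 1.85 log2 FPKM in MM1S and was below 0 in the other control columns.

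Some hypoxia target genes also differed sharply between lines, while others were expressed in every line. VEGFA averaged 102, 41.4 and 99.6 CPM in H929, MM1S and OPM2 empty vector cells. KDM3A averaged 80.2, 63.7 and 27.2 CPM in the same order. BNIP3, a mitophagy receptor, was at 50.1 and 61.8 CPM in H929 empty vector libraries and did not pass 0.745 CPM in any MM1S or OPM2 library. ADM, the vasodilator peptide adrenomedullin, had 205 and 203 CPM in MM1S empty vector libraries and at most 2.23 CPM in any library of the other lines. CA9, a carbonic anhydrase that moves acid out of hypoxic cells, was at 10.8 and 8.16 CPM in H929 empty vector libraries, at 2.53 and 0.930 CPM in untreated OPM2 libraries, and had 0 counts in the 2 OPM2 empty vector libraries. These levels are a description of single lines, since each line is 1 line and no test between lines was made.

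**Figure D1:**
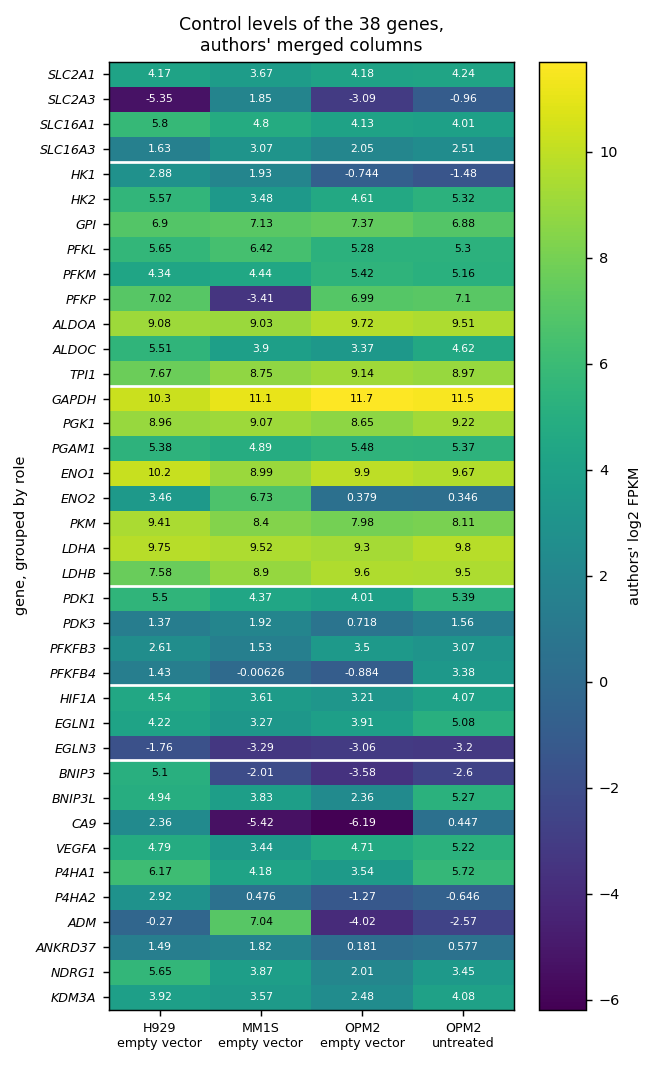
Level of each of the 38 genes in the authors' 4 merged control columns, in log2 FPKM (colour and printed value), with white lines between the roles of transport, upper glycolysis, lower glycolysis and lactate, flux switches, oxygen sensing and hypoxia response. GAPDH is highest at 10.3 to 11.7, PFKP is near-absent in MM1S (−3.41) and ADM stands out in MM1S (7.04).

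Glycolysis and hypoxia genes were lower in OPM2 cells given lenalidomide than in untreated OPM2 cells. Of the 38 genes, 18 were lower and 0 higher than in untreated cells by edgeR's quasi-likelihood test at an adjusted p below 0.05, beside 4.58% of all genes tested called lower and 5.76% called higher. No gene was higher at an unadjusted p below 0.05 either, nor by DESeq2 or limma (0 each). Calls fell in every role, with 1 of 4 transporters, 6 of 9 upper glycolysis enzymes, 5 of 8 enzymes from GAPDH to lactate, 2 of 4 flux switches, 1 of 3 oxygen sensors and 3 of 10 hypoxia response genes. The median log2 fold change of the 38 was −0.54, with 33 of 38 below 0, and the median of all genes tested was 0. Of the 18, BNIP3L, P4HA1, EGLN1, PFKFB4, PDK1, VEGFA, HK2 and PGK1 were also called lower in empty vector than in untreated cells, without lenalidomide. TPI1, GPI, LDHB and PFKM were called higher there, and the others were not called. What part the level of the untreated libraries has in the lenalidomide values was not tested.

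P4HA1, the collagen prolyl 4-hydroxylase subunit, had 54.8 and 36.8 CPM in lenalidomide libraries, against 170 and 136 CPM in untreated libraries. Both treated libraries lay far below either untreated one, and the log2 fold change was −1.74 ± 0.18 (SE, adjusted p = 1.73e-05, edgeR). VEGFA, the angiogenic growth factor, had 70.5 and 62.4 CPM in lenalidomide libraries, against 142 and 138 CPM in untreated libraries. Its groups were far apart relative to their spread, at a log2 fold change of −1.07 ± 0.14 (adjusted p = 0.000194, edgeR).

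Among the flux switches, PFKFB4 and PDK1 were lower. PFKFB4, a bifunctional enzyme that makes and removes the activator fructose 2,6-bisphosphate, had 11.3 and 5.27 CPM in lenalidomide libraries, against 60.3 and 43.7 CPM in untreated libraries. The groups did not overlap although each varied within itself, and the log2 fold change was −2.63 ± 0.45 (adjusted p = 0.00156, edgeR). PDK1, a kinase that shuts pyruvate dehydrogenase and so keeps pyruvate out of the mitochondrion, had 129 and 116 CPM in lenalidomide libraries, against 300 and 274 CPM in untreated libraries. It was lower in both treated libraries by a log2 fold change of −1.23 ± 0.23 (adjusted p = 0.00269, edgeR). PFKFB3, the related enzyme of dividing cells, and PDK3 did not pass the test, with log2 fold changes of −0.30 ± 0.13 and −0.25 ± 0.19.

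In the pathway itself, LDHA, the muscle-type lactate dehydrogenase, had 1369 and 1280 CPM in lenalidomide libraries, against 2410 and 2121 CPM in untreated libraries. PGK1, the first ATP-making step, had 921 and 880 CPM in lenalidomide libraries, against 1509 and 1318 CPM in untreated libraries. Both genes were lower in every treated library than in either untreated one, by log2 fold changes of −0.77 ± 0.11 for LDHA and −0.65 ± 0.11 for PGK1 (adjusted p = 0.000349 and 0.0012, edgeR). HK2 had 148 and 136 CPM in lenalidomide libraries, against 298 and 275 CPM in untreated libraries, a log2 fold change of −1.01 ± 0.20 (adjusted p = 0.00431, edgeR). SLC2A1, the main glucose transporter GLUT1, had 39.9 and 37.6 CPM in lenalidomide libraries, against 72.7 and 60.3 CPM in untreated libraries, a log2 fold change of −0.78 ± 0.15 (adjusted p = 0.00307, edgeR). Neither gene overlapped between its groups.

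The other 10 called genes (ALDOC, BNIP3L, ALDOA, GAPDH, TPI1, PGAM1, EGLN1, GPI, LDHB and PFKM) had log2 fold changes of −1.62 to −0.45. Genes that did not pass included NDRG1, a stress and hypoxia gene, at 60.3 and 60.6 CPM in lenalidomide libraries, against 55.7 and 45.2 CPM in untreated libraries, and HIF1A itself, with a log2 fold change of 0.27 ± 0.40. BNIP3 and ADM had 0 counts in both lenalidomide libraries, against 1 and 7 counts for BNIP3 and 6 and 2 counts for ADM in untreated libraries, and neither passed the test (adjusted p = 0.124 and 0.165, edgeR). MYC fell to 219 CPM under lenalidomide, against 536 CPM in untreated cells (log2 fold change −1.29 ± 0.15, adjusted p = 5.45e-05, edgeR), and its part in the glycolytic values was not tested. Leaving out 1 library at a time gave 7 to 22 genes lower, and 6 of the 18 calls (P4HA1, VEGFA, PFKFB4, PDK1, LDHA and PGK1) were kept every time. With only the compared groups in the fit 22 were lower and 2 higher, but P4HA1, PFKFB4, BNIP3L and ALDOC were no longer called, and 4 of the 18 calls (LDHA, PDK1, VEGFA and PGK1) were kept in every alternative tried.

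**Figure D2:**
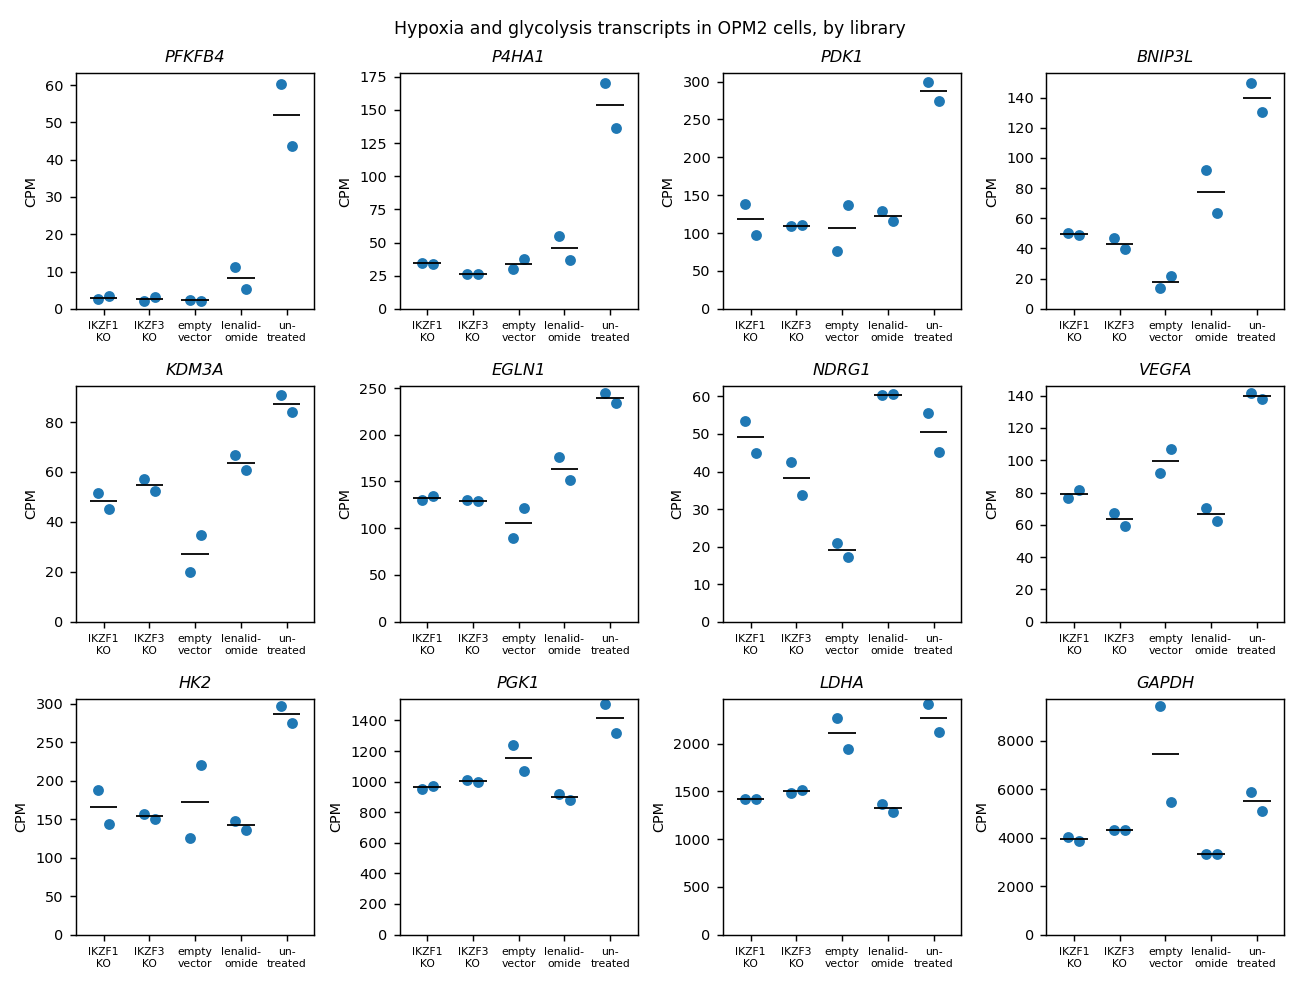
CPM (counts scaled to library size with TMM factors, linear axis from 0) of 12 of the genes in the 10 OPM2 libraries, with 1 point per library and a line at the mean of each group. PFKFB4, P4HA1, PDK1, HK2 and EGLN1 are highest in the 2 untreated libraries, NDRG1 is at 60.3 and 60.6 CPM under lenalidomide and at 20.9 and 17.2 CPM in empty vector cells, and GAPDH differs between the empty vector libraries (9420 and 5479 CPM).

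The empty vector cells, which are the controls of the knockouts, had lower hypoxia response genes than untreated OPM2 cells. With doxycycline and an empty vector, 13 of the 38 genes were lower and 5 higher than in untreated cells by edgeR's quasi-likelihood test, beside 15.8% of all genes tested called lower and 19.5% called higher (35.3% either way). The 13 lower genes were 6 of 10 hypoxia response genes (BNIP3L, CA9, P4HA1, KDM3A, NDRG1 and VEGFA), 3 of 4 flux switches (PFKFB4, PDK1 and PDK3), and EGLN1, SLC2A3, HK2 and PGK1. The 5 higher genes were GPI, LDHB, TPI1, PFKM and PFKFB3. Vector, doxycycline and any handling that came with them cannot be told apart.

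BNIP3L, the mitophagy receptor NIX, had 13.7 and 21.5 CPM in empty vector libraries, against 149 and 130 CPM in untreated libraries. KDM3A, a histone demethylase induced by hypoxia, had 19.8 and 34.6 CPM in empty vector libraries, against 90.9 and 83.9 CPM in untreated libraries. NDRG1 had 20.9 and 17.2 CPM in empty vector libraries, against 55.7 and 45.2 CPM in untreated libraries. All 3 were clearly separated, with log2 fold changes of −2.98 ± 0.23 for BNIP3L, −1.67 ± 0.21 for KDM3A and −1.41 ± 0.16 for NDRG1 (adjusted p = 3.05e-05, 0.000473 and 0.000292, edgeR).

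P4HA1 was at 30.2 and 37.4 CPM in empty vector libraries, against 170 and 136 CPM in untreated libraries. PFKFB4 was at 2.42 and 2.19 CPM in empty vector libraries, against 60.3 and 43.7 CPM in untreated libraries. P4HA1 changed by −2.18 ± 0.18 and PFKFB4 by −4.50 ± 0.52 on the log2 scale (adjusted p = 3.59e-05 and 0.000427, edgeR), and no library of either gene reached the other group. EGLN1, the main prolyl hydroxylase that marks HIF-1α, had 89.5 and 122 CPM in empty vector libraries, against 244 and 234 CPM in untreated libraries. PDK1 had 76.8 and 138 CPM in empty vector libraries, against 300 and 274 CPM in untreated libraries. Their log2 fold changes were −1.18 ± 0.15 for EGLN1 and −1.42 ± 0.23 for PDK1 (adjusted p = 0.000429 and 0.00109, edgeR), with the empty vector libraries uneven but both below the untreated ones.

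SLC2A3 was low throughout, at 0.294 and 0.365 CPM in empty vector libraries, against 1.70 and 1.72 CPM in untreated libraries, a log2 fold change of −2.32 ± 0.48 (adjusted p = 0.00319, edgeR). CA9 had 0 counts in the empty vector group, against 68 counts in the untreated group, so it was at least 22.5-fold lower with 3 counts over the group as the floor. The 68 counts were 55 in untreated replicate 1 and 13 in replicate 2, and without replicate 1 the bound was 11-fold. In the glycolytic chain, 3 of 9 upper glycolysis genes were higher and 1 (HK2) lower, and LDHA had a log2 fold change of −0.10 ± 0.11 (adjusted p = 0.494, edgeR). MYC was at 562 CPM in empty vector and 536 CPM in untreated cells (log2 fold change 0.07 ± 0.15, adjusted p = 0.761, edgeR). Of the 18 calls, 10 were kept whichever library was left out (BNIP3L, P4HA1, NDRG1, EGLN1, PFKFB4, KDM3A, PDK1, SLC2A3, PDK3 and CA9). Without empty vector replicate 1, TPI1 moved to a log2 fold change of 0.05, GPI to 0.32, LDHB to 0.33 and HK2 to −0.41, PGK1 moved to −0.44, and TPI1 and PFKM were no longer called. With only these 4 libraries in the fit, 0 of the 38 genes were called in either direction. With a term for the shared replicate number 9 were higher and 14 lower. The share of all genes called in these fits is not given, so the counts are not a result about these genes in particular.

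**Figure D3:**
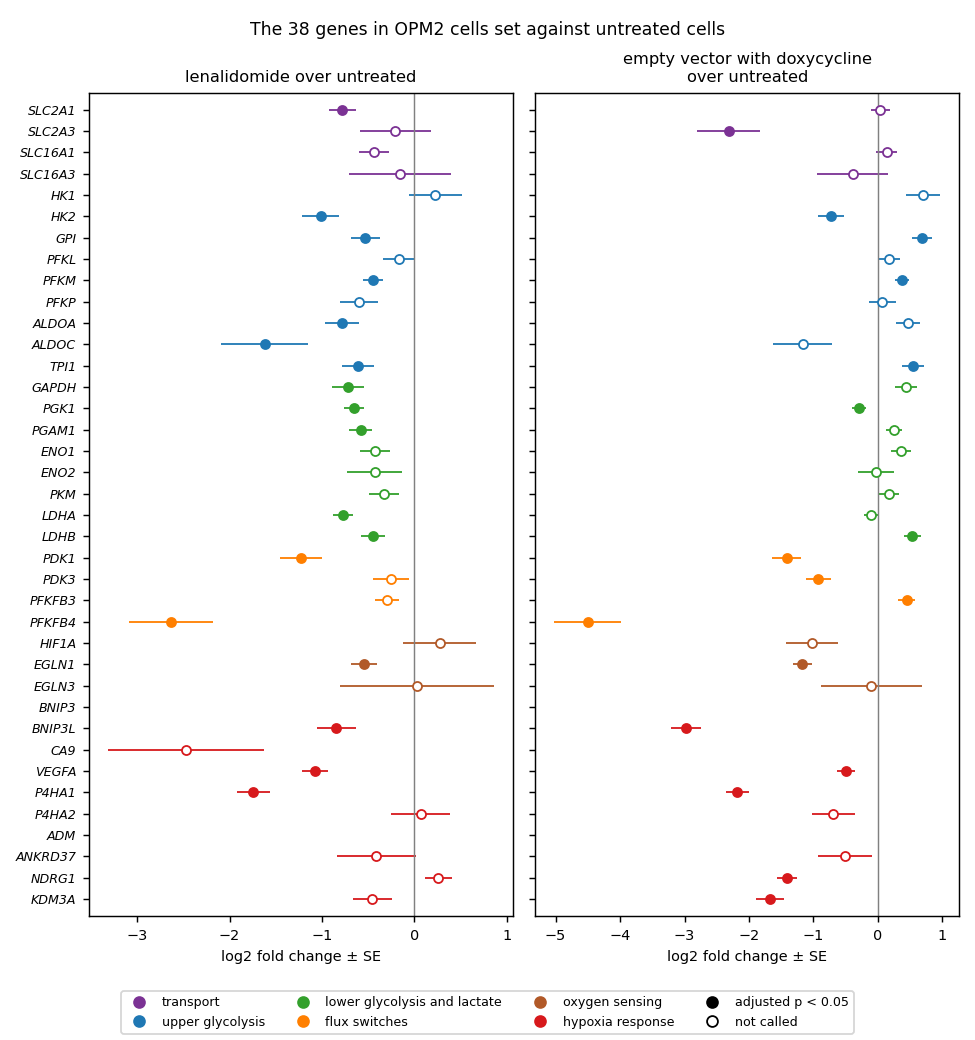
Log2 fold change ± SE of the 38 genes in OPM2 cells given lenalidomide (left) and in empty vector cells given doxycycline (right), each over the same untreated libraries, with filled points at an adjusted p below 0.05. Genes with 3 or fewer counts in a group are not drawn. Under lenalidomide all 18 filled points are below 0, and in empty vector cells PFKFB4 (−4.50) and BNIP3L (−2.98) lie farthest below 0 while GPI (0.68) is the highest filled point.

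The OPM2 empty vector libraries stood apart from each other across the whole transcriptome, and each comparison of an OPM2 knockout with empty vector cells rests on them. The median absolute log2 gap between the replicates over the 38 genes was 0.53, against 0.067 to 0.20 in the other 8 groups, and over all 14571 genes it was 0.47, against 0.088 to 0.20. Of all genes, 11.2% differed by over 2-fold between the 2 libraries. HIF1A had 12.3 CPM in replicate 1 and 58.6 CPM in replicate 2, while GAPDH had 9420 and 5479 CPM and ALDOA 4060 and 2268 CPM. Thus replicate 1 was low in HIF1A, PDK1, HK2 and KDM3A and high in most glycolytic enzymes. The 38 genes took 2.53% of its counts and 1.92% of those of replicate 2. The main fit estimates the spread over all 18 libraries, so the SE and p-values of these comparisons do not reflect the empty vector libraries alone.

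**Figure D4:**
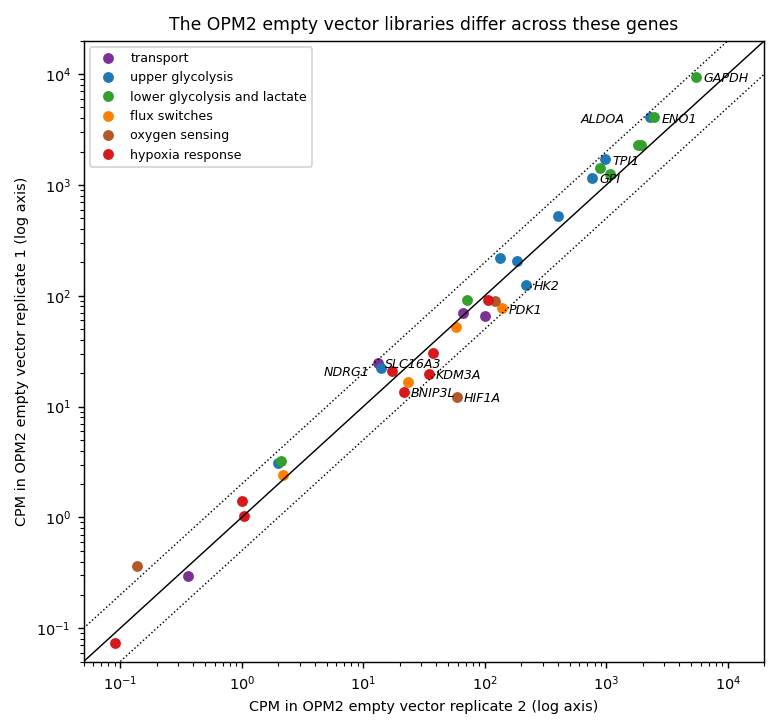
CPM of the genes in OPM2 empty vector replicate 1 (vertical, log axis) against replicate 2 (horizontal, log axis), coloured by role, with a solid line at equal values and dotted lines at a 2-fold difference. Genes at 0 in either library are not drawn, HIF1A lies below the dotted line (12.3 against 58.6 CPM), and GAPDH, ALDOA and TPI1 lie above the solid line.

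With IKZF1 knocked out in OPM2 cells, most enzymes of the glycolytic chain were lower than in empty vector cells. edgeR's test called 15 of the 38 genes lower and 6 higher, beside 20% of all genes tested called lower and 16.2% called higher. The members were thus called lower in 39.5% and higher in 15.8%, the higher share being near that of all genes. Lower were 7 of 9 upper glycolysis enzymes and 6 of 8 enzymes from GAPDH to lactate, with SLC2A1 and PFKFB3. Higher were BNIP3L, NDRG1, HIF1A, P4HA2, KDM3A and PDK3.

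NDRG1 had 53.3 and 45.0 CPM in IKZF1 knockout libraries, against 20.9 and 17.2 CPM in empty vector libraries. BNIP3L had 50.4 and 48.7 CPM in IKZF1 knockout libraries, against 13.7 and 21.5 CPM in empty vector libraries. Both genes were higher in each knockout library than in either control, by 1.37 ± 0.16 for NDRG1 and 1.48 ± 0.22 for BNIP3L on the log2 scale (adjusted p = 7.19e-05 and 0.000562, edgeR). GPI, which turns glucose 6-phosphate into fructose 6-phosphate, had 532 and 461 CPM in IKZF1 knockout libraries, against 1154 and 765 CPM in empty vector libraries. TPI1, the triose phosphate isomerase, had 669 and 680 CPM in IKZF1 knockout libraries, against 1710 and 982 CPM in empty vector libraries. Every knockout value was below both controls although the controls were far apart, with log2 fold changes of −0.95 ± 0.15 for GPI and −0.996 ± 0.18 for TPI1 (adjusted p = 0.00086 and 0.00131, edgeR).

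PFKM, the muscle-type phosphofructokinase, had 122 and 124 CPM in IKZF1 knockout libraries, against 204 and 185 CPM in empty vector libraries. LDHB, the heart-type lactate dehydrogenase, had 1236 and 1292 CPM in IKZF1 knockout libraries, against 2281 and 1821 CPM in empty vector libraries. Both were lower without overlap, by log2 fold changes of −0.67 ± 0.11 for PFKM and −0.70 ± 0.13 for LDHB (adjusted p = 0.000977 and 0.00154, edgeR). ALDOA had 1678 and 1486 CPM in IKZF1 knockout libraries and GAPDH 4047 and 3865 CPM, below the empty vector values given above, with changes on the log2 scale of −1.0 ± 0.19 for ALDOA and −0.91 ± 0.18 for GAPDH (adjusted p = 0.00176 and 0.00199, edgeR). The other 7 genes called lower besides SLC2A1 and PFKFB3 (ALDOC, ENO1, PGAM1, PFKP, LDHA, PFKL and PKM) had log2 fold changes of −1.52 to −0.49. The value of −1.52 is that of ALDOC, with 1.56 and 10.8 CPM in the knockout libraries, and it moved to −0.73 without knockout library a, where the call was lost, and to −3.52 without library b. Without replicate 1 of the empty vector, ENO1, PFKP, ALDOC, PFKL, PKM and PDK3 were no longer called, the log2 fold change of GAPDH moved to −0.44, TPI1 to −0.51, ALDOA to −0.49 and GPI to −0.59, and 11 of the 21 calls were kept whichever library was left out. With only the 4 compared libraries in the fit, 0 of the 38 genes were called, and no share of all genes is given beside that count.

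With IKZF3 knocked out and the same controls, 13 of the 38 genes were lower and 4 higher by edgeR's test, beside 20.6% of all genes tested called lower and 16.2% called higher. Lower were 5 of 9 upper glycolysis enzymes, 6 of 8 enzymes from GAPDH to lactate, SLC2A1 and VEGFA, and higher were HIF1A, BNIP3L, NDRG1 and KDM3A. LDHB had 1105 and 1163 CPM in IKZF3 knockout libraries, against 2281 and 1821 CPM in empty vector libraries. GPI had 476 and 521 CPM in IKZF3 knockout libraries, against 1154 and 765 CPM in empty vector libraries. Both were lower in each knockout library, with log2 fold changes of −0.86 ± 0.13 for LDHB and −0.94 ± 0.15 for GPI (adjusted p = 0.000464 and 0.000735, edgeR).

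NDRG1 had 42.6 and 33.8 CPM in IKZF3 knockout libraries and BNIP3L 46.7 and 39.6 CPM, above the empty vector values, with changes on the log2 scale of 1.0 ± 0.15 for NDRG1 and 1.28 ± 0.22 for BNIP3L (adjusted p = 0.000548 and 0.00108, edgeR). PFKM (114 and 131 CPM), PGAM1 (52.1 and 55.1 CPM), TPI1 (738 and 758 CPM) and ALDOA (1661 and 1762 CPM) were all lower in IKZF3 knockout libraries, by log2 fold changes of −0.89 to −0.60. VEGFA had 67.1 and 59.5 CPM in IKZF3 knockout libraries, against 92.1 and 107 CPM in empty vector libraries, a log2 fold change of −0.65 ± 0.14 (adjusted p = 0.00345, edgeR). MYC averaged 335 CPM in the IKZF1 knockout and 225 CPM in the IKZF3 knockout, against 562 CPM in empty vector cells. Its log2 fold changes were −0.75 ± 0.15 and −1.32 ± 0.15 (adjusted p = 0.00222 and 6.67e-05, edgeR). The part of MYC in the glycolytic values was not tested. HIF1A had 95.3 and 89.7 CPM in IKZF3 knockout libraries and 88.3 and 86.1 CPM in IKZF1 knockout libraries, against 12.3 and 58.6 CPM in empty vector libraries. The low control was replicate 1, and without it the log2 fold changes moved to 0.69 in the IKZF3 knockout and 0.61 in the IKZF1 knockout. Without it ENO1, HK1 and PKM were also no longer called, and the log2 fold change of GAPDH moved to −0.31, TPI1 to −0.36, ALDOA to −0.37, GPI to −0.59 and PGAM1 to −0.39. Of the 17 calls, 12 were kept whichever library was left out, and 0 genes were called with only the 4 compared libraries in the fit.

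Against untreated cells BNIP3L turned the other way. With untreated libraries in place of empty vector, 13 of the 38 genes were lower and 0 higher in the IKZF1 knockout, beside 3.69% and 4.08% of all genes, and 12 were lower and 1 (PFKFB3) higher in the IKZF3 knockout, beside 4.53% and 3.74%. BNIP3L had a log2 fold change of −1.50 ± 0.22 in the IKZF1 knockout and −1.70 ± 0.22 in the IKZF3 knockout against untreated cells (adjusted p = 0.00061 and 0.000198, edgeR). KDM3A and NDRG1 also changed sign, to −0.85 and −0.04 in the IKZF1 knockout and to −0.67 and −0.41 in the IKZF3 knockout. Most glycolytic enzymes called lower against empty vector cells were not called against untreated cells. In the IKZF1 knockout GPI, TPI1, PFKM, PFKL, PFKP, ALDOA, GAPDH, ENO1, PGAM1, PKM, LDHB and PFKFB3 lost the call. SLC2A1, LDHA and ALDOC kept it. In the IKZF3 knockout LDHA and VEGFA kept it, while GPI, TPI1, PFKM, ALDOA, GAPDH, ENO1, PGAM1, PKM, LDHB, HK1 and SLC2A1 lost it. P4HA1, at 34.2 and 34.1 CPM in the IKZF1 knockout and 26.3 and 26.1 CPM in the IKZF3 knockout, was not called against empty vector cells, with log2 fold changes of 0.01 ± 0.18 and −0.37 ± 0.18, and neither was PFKFB4 at 2.08 to 3.41 CPM. LDHA was lower in both knockouts against either control, by −0.67 ± 0.11 in the IKZF1 knockout and −0.60 ± 0.11 in the IKZF3 knockout against untreated cells on the log2 scale (adjusted p = 0.00162 and 0.0036, edgeR). SLC2A1 was lower against either control in the IKZF1 knockout (log2 fold change −0.63 ± 0.15 against untreated cells, adjusted p = 0.0141, edgeR), and the IKZF3 knockout missed the threshold against untreated cells (−0.49 ± 0.14, adjusted p = 0.0523, edgeR).

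Between the 2 OPM2 knockouts, 1 of the 38 genes was called, beside 0.885% of all genes tested lower and 1.71% higher (2.59% either way). PFKFB3 had 39.4 and 37.6 CPM in IKZF1 knockout libraries, against 54.7 and 55.4 CPM in IKZF3 knockout libraries. Both IKZF1 values were lower, with a log2 fold change of −0.52 ± 0.13 (adjusted p = 0.0496, edgeR), and the call was lost with upper quartile scaling, without the low-count filter and in 12 of 18 fits with 1 library left out (adjusted p up to 0.248, edgeR).

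In MM1S the IKZF1 knockout had higher P4HA2, PDK1 and SLC2A3 and lower LDHA than empty vector cells. edgeR's test called 7 of the 38 genes higher and 6 lower, beside 15.6% of all genes tested called higher and 12.6% called lower (28.2% either way). The shares of the members, 18.4% and 15.8%, are near those of all genes. Higher were P4HA2, PDK1, SLC2A3, KDM3A, BNIP3L, NDRG1 and PFKM, and lower were LDHA, GAPDH, HK2, ALDOA, VEGFA and SLC2A1.

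P4HA2, the second catalytic subunit of collagen prolyl 4-hydroxylase, had 26.4 and 26.8 CPM in knockout libraries, against 4.93 and 5.94 CPM in empty vector libraries. PDK1 had 434 and 478 CPM in knockout libraries, against 138 and 142 CPM in empty vector libraries. The replicates were tight in both groups, and the log2 fold changes were 2.29 ± 0.23 for P4HA2 and 1.71 ± 0.23 for PDK1 (adjusted p = 5.21e-06 and 7.85e-05, edgeR). SLC2A3 had 35.1 and 38.8 CPM in knockout libraries, against 15.6 and 13.4 CPM in empty vector libraries, a log2 fold change of 1.35 ± 0.25 (adjusted p = 0.00107, edgeR). KDM3A had 116 and 115 CPM in knockout libraries, against 67.3 and 60.1 CPM in empty vector libraries, a log2 fold change of 0.86 ± 0.21 (adjusted p = 0.00639, edgeR). All 4 genes were higher in both knockout libraries.

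LDHA had 833 and 769 CPM in MM1S knockout libraries, against 1501 and 1462 CPM in empty vector libraries. GAPDH had 2485 and 2372 CPM in knockout libraries, against 4042 and 3966 CPM in empty vector libraries. Both were lower in each knockout library, by log2 fold changes of −0.89 ± 0.11 for LDHA and −0.72 ± 0.18 for GAPDH (adjusted p = 3.83e-05 and 0.00647, edgeR). PFKM (119 and 118 CPM, against 94.4 and 86.0 CPM in empty vector libraries) and NDRG1 (99.7 and 98.8 CPM, against 70.6 and 70.2 CPM in empty vector libraries) were higher by smaller log2 fold changes of 0.39 ± 0.11 and 0.50 ± 0.15. The remaining calls had log2 fold changes of −0.59 to −0.43 for HK2, ALDOA, VEGFA and SLC2A1 and of 0.66 for BNIP3L. MYC had a log2 fold change of 0.11 ± 0.15 here (adjusted p = 0.646, edgeR). LDHA, PDK1, P4HA2 and SLC2A3 were called whichever library was left out and under each scaling, filter and test tried.

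In H929 a few hypoxia genes were higher in the IKZF1 knockout than in empty vector cells, and no enzyme of the glycolytic chain was called. edgeR's test called 5 of the 38 genes higher and 0 lower, beside 5.92% of all genes tested called higher and 4.6% called lower. At an unadjusted p below 0.05, 3 were lower, and DESeq2 and limma called 0 lower. PFKFB4 had 38.1 and 65.5 CPM in knockout libraries, against 6.46 and 22.04 CPM in empty vector libraries, a log2 fold change of 1.85 ± 0.43 (adjusted p = 0.0107, edgeR). EGLN1 had 199 and 232 CPM in knockout libraries, against 120 and 139 CPM in empty vector libraries, a log2 fold change of 0.74 ± 0.14 (adjusted p = 0.00378, edgeR). Neither gene overlapped between groups, but replicate 1 of the empty vector was the lower control for both. The log2 fold change of PFKFB4 moved to 1.23 without empty vector replicate 1 and to 3.001 without replicate 2.

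BNIP3 had 114 and 105 CPM in H929 knockout libraries, against 50.1 and 61.8 CPM in empty vector libraries. KDM3A had 117 and 142 CPM in knockout libraries, against 67.3 and 93.1 CPM in empty vector libraries. NDRG1 had 318 and 361 CPM in knockout libraries, against 220 and 246 CPM in empty vector libraries. The log2 fold changes were 0.97 ± 0.22 for BNIP3, 0.69 ± 0.21 for KDM3A and 0.54 ± 0.14 for NDRG1 (adjusted p = 0.013, 0.0444 and 0.0253, edgeR), each with both knockout libraries above both controls. Without empty vector replicate 1 all 5 calls were lost, with adjusted p from 0.0704 to 0.381 (edgeR). SLC16A3, the lactate exporter MCT4, differed between the H929 knockout libraries themselves (0.546 and 9.64 CPM, against 14.9 and 13.7 CPM in empty vector libraries) and was not called.

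**Figure D5:**
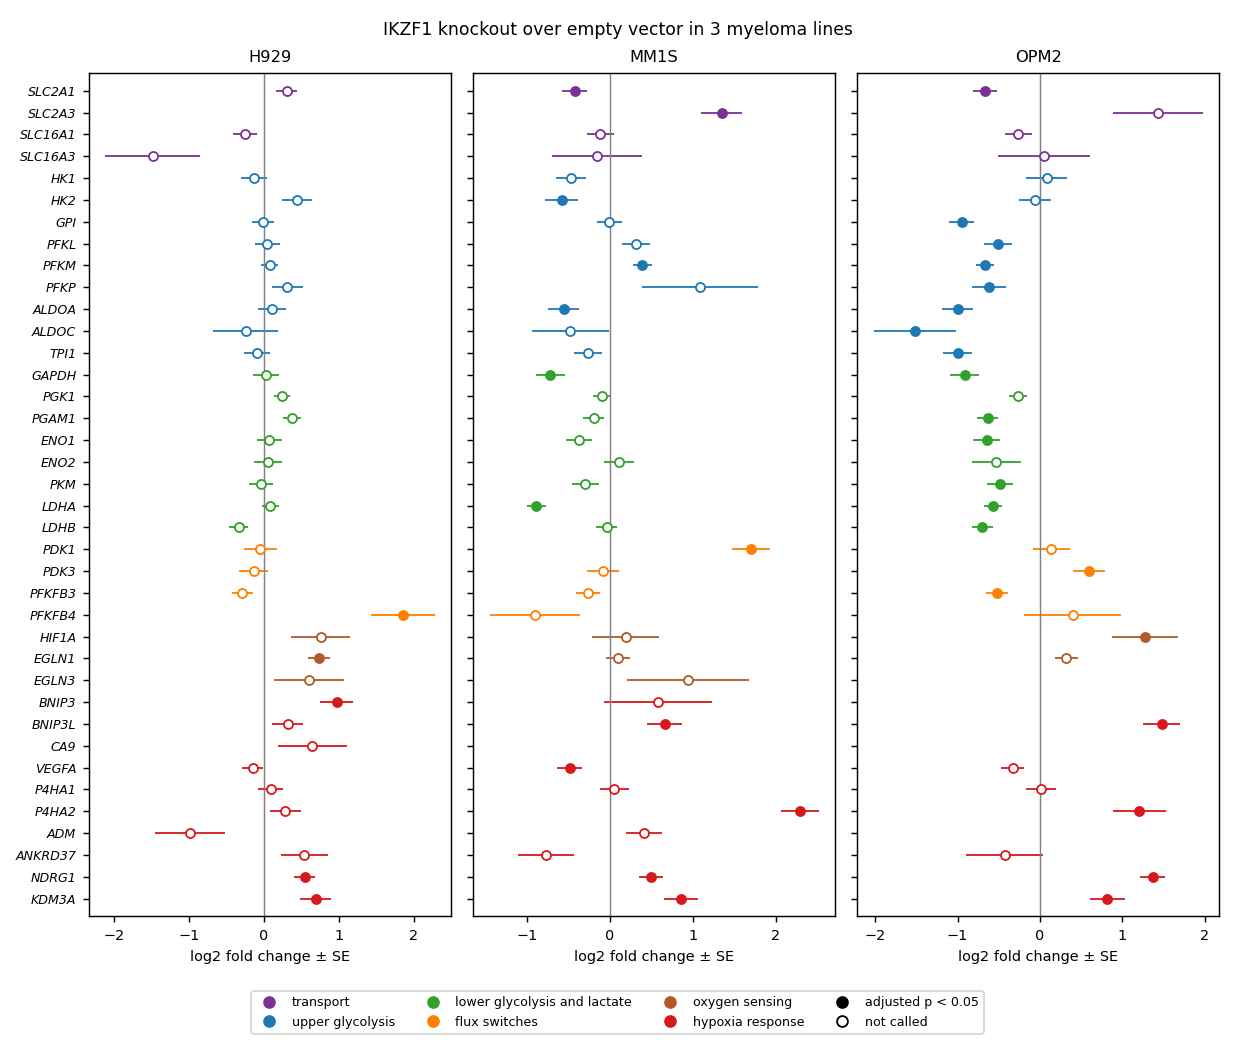
Log2 fold change ± SE of the 38 genes in IKZF1 knockout over empty vector cells in H929, MM1S and OPM2, with filled points at an adjusted p below 0.05 and genes with 3 or fewer counts in a group not drawn. KDM3A (0.69, 0.86 and 0.82) and NDRG1 (0.54, 0.50 and 1.37) are filled above 0 in each line, while LDHA is filled below 0 in MM1S and OPM2 only.

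KDM3A and NDRG1 were called higher in the IKZF1 knockout of every line, but each OPM2 value changed sign against untreated cells. Of all genes tested, 5.92%, 15.6% and 16.2% were called higher in H929, MM1S and OPM2. The share of all genes called higher in every line was not counted. In H929 the KDM3A call was kept in 3 of 18 fits with 1 library left out and was lost with only the compared groups in the fit, and that of NDRG1 was kept in 15. In MM1S they were kept in 17 and 14 of 18. Most of these fits left out a library of a group that was not compared. The NDRG1 call in MM1S was lost without any 1 of the compared MM1S libraries, and that of KDM3A without empty vector replicate 2. In H929 the NDRG1 call was lost without either empty vector library or without knockout library b. The log2 fold change of NDRG1 in MM1S was 0.48 to 0.51 over the 18 fits. Tests of the difference between lines found 6 genes with a higher and 2 with a lower effect in H929 than in MM1S, beside 6.94% and 8.91% of all genes. For H929 against OPM2, 10 genes had a higher and 2 a lower effect, beside 6.51% and 6.14% of all genes, and for MM1S against OPM2, 6 had a higher and 1 a lower effect, beside 11.8% and 8.94%. LDHA, P4HA2 and PDK1 differed between H929 and MM1S whichever library was left out. The lenalidomide effect differed from the IKZF1 knockout effect in 3 genes, all lower under lenalidomide (0.213% of all genes lower and 0.0686% higher, 0.281% either way), and from the IKZF3 knockout effect in 6 genes, all lower (3.1% lower and 3.51% higher, 6.6% either way). Those 2 tests set a contrast with untreated cells beside a contrast with empty vector cells, and the 2 control groups differ in the same genes.

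Lists of other genes of the pathway are given beside the shares of all genes called in the same comparison. Of 31 tested among 36 other hypoxia targets, 8 were lower and 2 higher under lenalidomide (25.8% and 6.45%, beside 4.58% and 5.76% of all genes), led by GBE1, the glycogen branching enzyme (52.7 CPM under lenalidomide and 107 CPM in untreated cells), and FAM162A (28.0 and 56.6 CPM in the same order), while CITED2, which competes with HIF-1α for its coactivators, rose to 486 CPM under lenalidomide, against 132 CPM in untreated cells. In empty vector against untreated OPM2 cells 16 of the 31 were lower and 2 higher (51.6% and 6.45%, beside 15.8% and 19.5%), led by GBE1 (log2 fold change −1.35 ± 0.17) and RORA (−1.41 ± 0.22). In the IKZF1 knockouts, 3 of the 31 were higher and 0 lower in H929 (9.68% and 0%, beside 5.92% and 4.6%). In MM1S 8 were higher and 4 lower (25.8% and 12.9%, beside 15.6% and 12.6%), and in OPM2 7 were higher and 5 lower (22.6% and 16.1%, beside 16.2% and 20%). PLOD2, a collagen lysyl hydroxylase, was at 160 CPM in knockout and 74.9 CPM in empty vector H929 cells and at 214 CPM in knockout and 51.3 CPM in empty vector MM1S cells. Under IKZF3 knockout 4 were higher and 7 lower (12.9% and 22.6%, beside 16.2% and 20.6%), so these counts are near the shares of all genes.

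Of 10 tested genes of the HIF machinery, EPAS1, which encodes HIF-2α, was the 1 called under lenalidomide, at 4.88 CPM and 1.43 CPM in untreated cells. That is 10% higher and 0% lower, beside 5.76% and 4.58% of all genes. The same gene was higher in the MM1S knockout (13.99 CPM, against 5.72 CPM in empty vector cells) and lower in the H929 knockout (1.01 CPM, against 4.57 CPM in empty vector cells). In OPM2, 3 of the 10 (ELOB, ELOC and RBX1, subunits of ubiquitin ligases) were lower and 0 higher in the IKZF1 knockout. These shares are 30% and 0%, beside 20% and 16.2% of all genes. In the IKZF3 knockout 3 were lower and 1 (ARNT, the partner of HIF-1α) higher (30% and 10%, beside 20.6% and 16.2%). In empty vector against untreated cells 3 were higher and 1 (ARNT) lower (30% and 10%, beside 19.5% and 15.8%). Of 17 tested among 25 other glycolysis enzymes and transporters, 1 was higher and 0 lower under lenalidomide (5.88% and 0%, beside 5.76% and 4.58%). In empty vector against untreated cells 2 of the 17 were higher and 4 lower (11.8% and 23.5%, beside 19.5% and 15.8%). Of 12 genes of the pentose phosphate and glycogen routes, 5 were lower and 0 higher in the MM1S knockout (41.7% and 0%, beside 12.6% and 15.6% of all genes). In each OPM2 knockout 5 were lower and 2 higher (41.7% and 16.7%), beside 20% and 16.2% of all genes for IKZF1 and 20.6% and 16.2% for IKZF3, and under lenalidomide 2 were lower and 2 higher (16.7% each, beside 4.58% and 5.76%). TKT, the transketolase, had 389 CPM in the IKZF1 knockout and 816 CPM in empty vector OPM2 cells, and 321 CPM under lenalidomide and 478 CPM in untreated cells. Pyruvate entry into the mitochondrion had 11 tested genes. In the OPM2 IKZF1 knockout 5 were lower and 1 higher (45.5% and 9.09%, beside 20% and 16.2% of all genes). In the IKZF3 knockout 3 were lower and 2 higher (27.3% and 18.2%, beside 20.6% and 16.2%). In empty vector against untreated cells 2 were lower and 2 higher (18.2% each, beside 15.8% and 19.5%). By edgeR 0 were called under lenalidomide or in the MM1S and H929 knockouts (beside 10.3%, 28.2% and 10.5% of all genes either way).

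TXNIP, which restrains glucose uptake, is induced by glucose through the factor MondoA. It was at 378 CPM in the MM1S knockout and 100 CPM in its empty vector cells, at 278 CPM in the H929 knockout and 149 CPM in its empty vector cells, and at 83.3 CPM in empty vector and 253 CPM in untreated OPM2 cells. All 3 differences were called by edgeR (adjusted p = 8.5e-06, 0.00796 and 0.000443). It was not called in the OPM2 IKZF1 knockout (106 CPM) or IKZF3 knockout (105 CPM), against 83.3 CPM in empty vector cells, or under lenalidomide (248.9 CPM, against 253 CPM in untreated cells), where MLXIP, the gene of MondoA itself, was the 1 gene of its list called in each, with log2 fold changes of 0.59 to 0.80. The ATF4 stress response also reacts to nutrient supply, and 10 of its genes were tested. Under lenalidomide 6 were lower, and in the MM1S knockout 9 (60% and 90%, beside 4.58% and 12.6% of all genes). In the OPM2 IKZF1 and IKZF3 knockouts 6 and 7 were lower (60% and 70%, beside 20% and 20.6%). In empty vector against untreated cells 2 were lower (20%, near the 15.8% of all genes). In the H929 knockout 0 were lower and 1 higher (0% and 10%, beside 4.6% and 5.92%).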

How the data were processed

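RNA-seq counts of 18 libraries were analysed. The authors deposited raw counts per gene, made with Subread and featureCounts on GRCh38 per the submitters' processing notes, with settings not given in the sources used here, and a table of log2 FPKM with merged control columns. The test was edgeR 4.0.16 (R 4.3.3) with filterByExpr by group, TMM scaling, 1 coefficient per group over all 18 libraries (9 residual degrees of freedom), robust quasi-likelihood tests, and Benjamini-Hochberg adjustment over 14571 genes, called below 0.05. CPM are TMM-scaled, and SE comes from the fold change and F statistic. The procedure was tested on simulated data. Knockout columns carry other numbers than the titles, so their libraries were assigned by group and called a and b. Genes without a symbol (385) stayed in the fit. Floors of 3 counts cover counting error only. DESeq2 1.42.0, limma 3.58.1 (voom), other scalings, filters and left-out libraries were alternatives. For each comparison, up to 8 called genes with the smallest p are given in full. The genes and lists were chosen with earlier results of these data known.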

Additional observations from a re-analysis of the deposited data

Results flagged for a closer look

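These genes are listed because a test of the difference between effects, an interaction contrast in edgeR adjusted over all genes, was below 0.05. Values are differences of log2 fold changes, first effect minus second, and no cause was tested. For the IKZF1 knockout in H929 minus MM1S they were P4HA2 (−2.01), LDHA (0.972), PDK1 (−1.75), PFKFB4 (2.76), HK2 (1.03), SLC2A1 (0.729), PGAM1 (0.567) and EGLN1 (0.643).

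For the IKZF1 knockout in H929 minus OPM2 they were PGAM1 (1.01), SLC2A1 (0.973), PFKM (0.747), GPI (0.937), LDHA (0.655), ALDOA (1.11), NDRG1 (−0.829), BNIP3L (−1.16), GAPDH (0.936), TPI1 (0.901), PGK1 (0.503) and PFKP (0.933), and in MM1S minus OPM2 PFKM (1.06), PDK1 (1.56), GPI (0.94), NDRG1 (−0.875), LDHB (0.657), PFKL (0.821) and TPI1 (0.732). Both use the OPM2 empty vector libraries, which differ from each other.

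For lenalidomide against untreated minus IKZF1 knockout against empty vector they were BNIP3L (−2.33), P4HA1 (−1.76) and NDRG1 (−1.11), and minus IKZF3 knockout against empty vector BNIP3L (−2.13), P4HA1 (−1.37), KDM3A (−1.46), EGLN1 (−0.834), PFKFB4 (−2.87) and PDK1 (−1.26). BNIP3L, P4HA1, KDM3A, EGLN1, PFKFB4, PDK1 and NDRG1 were also lower in empty vector than in untreated cells, so the control groups enter these differences.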

How the results depend on the processing

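Counts of the 38 genes called (higher, lower) changed side or by over 1.5 times as follows, and the cause was not tested. Except with untreated as control, the shares of all genes called under these alternatives are not given, here or above. These swings can therefore not be told apart from swings in the calls of all genes. With only the compared groups in the fit, the OPM2 IKZF1 knockout, OPM2 IKZF3 knockout and empty vector against untreated comparisons gave 0 and 0, lenalidomide gave 2 higher, the MM1S knockout 12 lower, H929 minus MM1S 10 higher, H929 minus OPM2 0 and 0, MM1S minus OPM2 1 and 0, and both lenalidomide differences 0 lower. With untreated as control, the IKZF1 knockout gave 0 higher and the IKZF3 knockout 1 higher. Without a low-count filter the H929 knockout gave 1 lower, H929 minus MM1S 4 lower, H929 minus OPM2 4 lower, MM1S minus OPM2 5 lower, and lenalidomide minus IKZF1 and IKZF3 knockout 12 and 11 lower. The DESeq2 Wald test gave 2 lower for MM1S minus OPM2 and 11 and 10 lower for the lenalidomide differences, and upper quartile scaling gave 0 lower between the OPM2 knockouts.

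Leaving out 1 library at a time gave 0 to 9 higher and 0 to 1 lower in the H929 knockout, 3 to 9 and 1 to 10 in MM1S, 3 to 8 and 10 to 15 in the OPM2 IKZF1 knockout, 3 to 5 and 9 to 16 in the IKZF3 knockout, 0 to 0 and 7 to 22 under lenalidomide, 0 to 12 and 11 to 14 in empty vector against untreated cells, and 0 to 1 and 0 to 1 between the knockouts. The differences gave 1 to 11 and 2 to 4 (H929 minus MM1S), 1 to 14 and 0 to 5 (H929 minus OPM2), 3 to 13 and 0 to 6 (MM1S minus OPM2), 0 to 8 and 1 to 11 (lenalidomide minus IKZF1 knockout) and 0 to 9 and 1 to 12 (minus IKZF3 knockout).

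Signs reversed in 7 cases, all with untreated as control: IKZF1 knockout KDM3A (−0.85), BNIP3L (−1.50), NDRG1 (−0.0398) and PDK3 (−0.33), and IKZF3 knockout KDM3A (−0.67), BNIP3L (−1.70) and NDRG1 (−0.41). Over the other single-gene values, 2723 kept direction and call and 551 lost the call. OPM2 empty vector and untreated cells share replicate numbers, and the correlation of their deviations was 0.406 over 8924 genes, but 2 pairs with no stated link do not establish pairing. The replicate block gave 9 higher and 14 lower. For the other comparisons no replicate block was fitted, because knockout columns carry other numbers than the titles and lenalidomide titles carry letters.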
